A study of Mus musculus with 12 samples.

Results

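The MYC, MAX and MXD family is a set of transcription factors that share MAX, or its relative MLX, as a dimer partner. The 10 genes followed here, Myc, Mycn, Mycl, Max, Mxd1, Mxd3, Mxd4, Mxi1, Mnt and Mlx, were chosen by gene symbol through their Entrez identifiers, and are 10 of the 26301 genes in the count table. All 10 passed the filter on low counts, which kept 13882 genes, but Mxd3, with 1 to 3 counts in each control liver, passed only through the tumors.

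MYC, MYCN and MYCL bind DNA as dimers with MAX, mostly at the E-box letters CACGTG, and raise the transcription of genes for ribosome production, metabolism and cell growth. MXD1, MXD3, MXD4, MXI1 and MNT compete for MAX and recruit the SIN3 corepressor with its histone deacetylases to the same letters, so the balance of both sides is thought to set the output of the network. MLX pairs with MondoA and with ChREBP, the sensor of glucose in liver, and forced MYC expression in hepatocytes is a classic way to produce liver tumors in mice.

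Liver RNA was sequenced from 12 adult mice bred into FVB, which had aged until humane end points were reached. The 4 control libraries come from livers of age-matched wild-type mice without tumors. The 4 libraries labelled DKO come from spontaneous liver tumors with the genotype Alb-Cre-E2f7 E2f8 knockout, and the 4 labelled TKO from such tumors with the genotype Alb-Cre-Rb1 E2f7 E2f8 knockout. E2F7 and E2F8 are repressors of E2F target genes and RB restrains the activating E2Fs. The liver part of the study is about how far these brakes on E2F activity, RB on 1 side and the E2F7 and E2F8 pair on the other, back each other up in hepatocytes. The study also covers tumors of the pituitary gland and the lung. Cre is driven by the albumin promoter, which the paper describes as specific to hepatocytes. Deletion in other cells of a tumor was not measured here. Replicate numbers run from 1 to 4 in each group and do not pair mice between groups.

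The total was between 9165812 counts (control 2) and 16424973 counts (DKO 1). Control totals were 12845303, 9165812, 16190797 and 13864168 counts for replicates 1 to 4, in the order used for all values below. Those of the tumors labelled DKO were 16424973, 13156779, 15065683 and 15450721, and those of the tumors labelled TKO 16313303, 15325121, 12424532 and 10455159. Levels are given as CPM, counts per 1000000 counts of the library, after scaling by TMM, edgeR's trimmed mean of M values. Levels of different members are compared only as CPM per kilobase of annotated exons, while the most abundant gene of a marker list is named by CPM, which is not corrected for length.

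The labelled tissue was checked against 10 hepatocyte markers. All 10 were tested and none was at 0 in any library, and albumin, the most abundant, averaged 93427 CPM in control livers, 177107 CPM in tumors labelled DKO and 115733 CPM in tumors labelled TKO. Their summed level lay between 120737 and 182136 CPM in control livers, between 166783 and 424579 CPM in tumors labelled DKO and between 70534 and 303308 CPM in tumors labelled TKO. The median log2 fold change of the 10 was 0.20 for DKO and -0.04 for TKO against control, with 0 called by edgeR, and 2 and 0 at an unadjusted p under 0.05 beside 24.0% and 16.3% of all genes.

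The deleted genes came next. E2f7 had 15, 7, 8 and 10 counts in control livers, 24, 20, 16 and 4 in tumors labelled DKO, and 14, 11, 9 and 12 in tumors labelled TKO. E2f8 stood at 4.52, 8.97, 5.96 and 5.49 CPM in control livers, at 7.59, 45.6, 11.4 and 17.3 CPM in tumors labelled DKO, and at 26.0, 13.8, 52.2 and 12.3 CPM in tumors labelled TKO. The counts of E2f7 therefore overlap between all groups, and E2f8 was above every control liver in 7 of 8 tumors. Counts here add up all exons of a gene, so they leave unseen whether the deleted exons are missing, and these values do not show the deletions of E2f7 and E2f8, and the tumors are named by their labels. Rb1, the retinoblastoma gene, was at 10.7, 6.52, 8.27 and 7.69 CPM in control livers, at 11.3, 8.38, 7.99 and 8.37 CPM in tumors labelled DKO, and at 4.22, 5.47, 4.91 and 3.21 CPM in tumors labelled TKO. All 4 tumors labelled TKO lay below the other 8 libraries for Rb1, at a log2 fold change of -1.01 (SE 0.215) against the tumors labelled DKO with an edgeR adjusted p of 0.281.

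Several libraries stand apart. Over all tested genes, TKO 1, TKO 3 and TKO 4 had a lower median Spearman correlation with their own group (0.946, 0.946 and 0.939) than with the other libraries (0.952, 0.959 and 0.947), while the other 9 libraries were closer to their own group. The summed level of the hepatocyte markers was highest in DKO 1 (424579 CPM) and lowest in TKO 4 (70534 CPM). DKO 3 and TKO 3 held the highest sums of their groups for markers of Kupffer, stellate and endothelial cells, lymphocytes and neutrophils. By the biliary sum DKO 3 was the highest of its group and TKO 3 the lowest. By gene, DKO 3 and DKO 1 were each the highest for 3 of the 6 biliary markers. TKO 3 was the lowest of its group for 0 of them and TKO 2 for 5. In bulk RNA, fewer cells of a type and less RNA per cell cannot be told apart.

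With TMM scaling, Mxi1, an antagonist of MYC, was below every control liver in 7 of 8 tumors. Mxd3, another antagonist, was above every control liver in 7 of 8 by its few counts, and TKO 3 was the exception for both genes. With total counts in place of TMM, DKO 3 and TKO 4 were also above the lowest control liver for Mxi1. Myc itself was above every control liver in 0 of 8 tumors, with medians of 9.48 CPM in control livers, 4.34 CPM in tumors labelled DKO and 7.60 CPM in tumors labelled TKO (n = 4 each). None of these differences passed the threshold of 0.05 for a p adjusted over all 13882 genes in edgeR. The share of all genes that lie outside the control range in 7 of 8 tumors was not counted. Groups without overlap were seen for 16.2% of all genes for DKO and 7.67% for TKO against control. Mxd3 passed the filter only through the tumors, so these positions are not a result about the family.

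For DKO against control, edgeR called 0 of 10 members, where 2.42% of all tested genes were called. At an unadjusted p under 0.05 there were 3 members (Mycl, Mxd3 and Mxi1) beside 24.0% of all genes. The groups did not overlap for 1 member in the higher direction (Mxd3, beside 8.87% of genes) and for 2 in the lower direction (Mxd4 and Mxi1, beside 7.30%), which is 3 members beside 16.2% of genes. With total counts in place of TMM, these groups overlapped for Mxd4 and for Mxi1. DESeq2 called 1 member, Mxd3, and 10.4% of genes, and limma voom with quality weights called 2, Mxd3 and Mxi1, and 13.0% of genes. A higher level was seen for 6 members and a lower for 4, with a median log2 fold change of 0.13, while 7162 of the 13882 genes were higher with a median of 0.02.

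For TKO against control, edgeR called 0 of 10 members and 0.0864% of genes. An unadjusted p under 0.05 was reached by 2 members, Mxd3 and Mxi1, and 16.3% of genes, and no member had groups without overlap, beside 7.67% of genes. DESeq2 called 0 members and 3.49% of genes, and voom 0 members and 0.699% of genes. Here 7 members were higher and 3 lower, at a median of 0.16, and 7289 of all genes were higher, at a median of 0.02.

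For TKO against DKO, whose labels differ by the Rb1 knockout, edgeR called 0 members and 0% of genes. An unadjusted p under 0.05 was reached by 0 members beside 9.0% of genes, and no member had groups without overlap, beside 4.87% of genes. DESeq2 called 0 members and 0.398% of genes, and voom 0 members and 0% of genes. The lowest adjusted p of a member was 0.598 (Mxd4), and 4 members were higher and 6 lower, at a median of -0.01 beside 0.01 for all genes, and under total counts Mycn, Mxi1 and Mlx turned from lower to higher. The 95% intervals of this difference show what the data allow, since a p that misses the threshold does not show equal levels. They were narrowest for Mlx, from -0.26 to 0.25 on the log2 scale, and widest for Mycn, from -1.66 to 1.28.

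For the mean of both tumor groups against control, edgeR called 0 members and 2.48% of genes. An unadjusted p under 0.05 was reached by 2 members, Mxd3 and Mxi1, and 23.0% of genes, and no member had groups without overlap, beside 3.66% of genes. DESeq2 called 2 members and 9.49% of genes, and voom 2 members and 13.1% of genes, in both cases Mxd3 and Mxi1. In this comparison 7 members were higher and 3 lower, at a median of 0.17 beside 0.02 for all genes. The 3 comparisons with control livers share those 4 livers and are not independent, and counts of 0 to 3 among 10 members lie near the shares over all genes, so they are not a result about the family. Mxd3 is part of these counts and medians although it passed the filter only through the tumors.

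The number of genes called depends on single libraries, and TKO 3 is the library whose absence changed calls of members. Without TKO 3, edgeR called 651 genes for DKO, 231 for TKO and 1019 for both, against 336, 12 and 344 with all libraries. Without control 2 or without control 3 it called 0 genes in all comparisons, and without control 4 it called 5, 1 and 6. The counts of control 2 and control 3 were the most alike of all pairs within a group, at a chi-square per gene of 19.9. The next pair, control 1 and control 4, was at 62.7, and the reason was not tested. Leaving out control 1 gave 166, 0 and 19 genes, DKO 1 gave 5, 2 and 6, DKO 2 gave 7, 0 and 15, and DKO 4 gave 7, 1 and 87. Leaving out TKO 1 gave 96, 1 and 0, and TKO 2 gave 292, 0 and 0. Scaling by total counts in place of TMM moved the median log2 fold change of all genes to 0.17 for TKO and 0.12 for both, and the calls to 52 higher and 7 lower for DKO, 8 and 1 for TKO, and 51 and 10 for both. With TMM these were 196 and 140, 7 and 5, and 174 and 170.

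**Figure D1:**
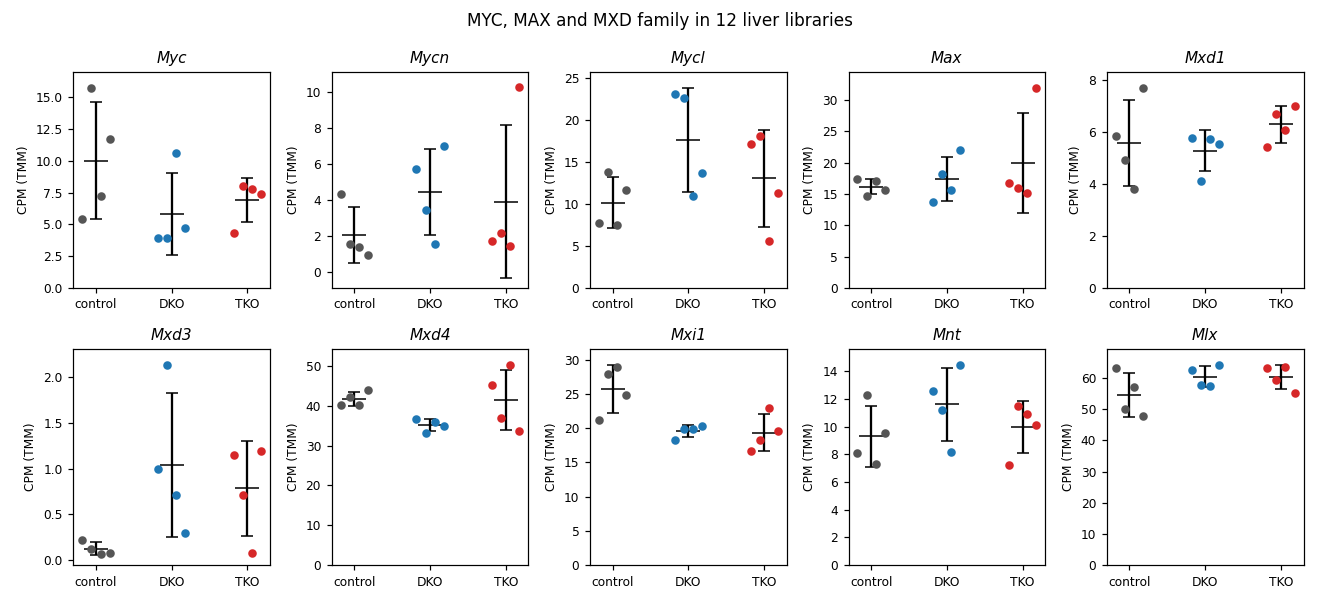
Level of each of the 10 members in CPM (vertical axis, TMM scaled, its own scale in each panel) in 4 control livers, 4 tumors labelled DKO and 4 tumors labelled TKO; points are libraries and bars mark the mean and SD. Mxd3 is at most 0.222 CPM in all control livers and in TKO 3, and Mxi1 is at most 20.3 CPM in every tumor apart from TKO 3 at 23.0 CPM.

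Per kilobase, Mlx was the most abundant member in control livers at 27.4 ± 3.53 CPM per kilobase (SD, n = 4). Mxd4 followed at 10.7 ± 0.462 and Max at 8.08 ± 0.602, and the ranges of these 3 genes did not overlap with each other or with the next gene. Mxi1 came next at 4.59 ± 0.622, then Myc at 3.69 ± 1.71, Mycl at 2.52 ± 0.759, Mnt at 2.01 ± 0.474, Mxd1 at 1.19 ± 0.353 and Mycn at 0.634 ± 0.471 CPM per kilobase. From Mxi1 to Mycn the range of each gene overlapped with that of its neighbor in this order. Within every single control liver, however, Myc was above Mycl, Mycl above Mnt and Mnt above Mxd1. Myc was above Mxi1 in control 2, and Mycn above Mxd1 in control 1. These orders within libraries were not tested. Mxd3 was last at 0.0584 ± 0.0345 CPM per kilobase, apart from Mycn. Among 13094 tested genes with an annotated length, Mlx was above 87.3%, Max above 68.2%, Myc above 50.4% and Mxd3 above 0.580%.

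In tumors labelled DKO, Mlx again led at 30.3 ± 1.72 CPM per kilobase, and Mxd4 (9.08 ± 0.405) and Max (8.69 ± 1.77) overlapped. Mycl came next at 4.36 ± 1.54, then Mxi1 (3.49 ± 0.156), Mnt (2.51 ± 0.572) and Myc (2.13 ± 1.18), and the range of Mycl, from 2.71 to 5.73, overlapped with those of all 3. Mycn (1.36 ± 0.731), Mxd1 (1.13 ± 0.169) and Mxd3 (0.497 ± 0.379) came last, each overlapping with the next. In tumors labelled TKO, Mlx stood at 30.2 ± 1.94, Mxd4 at 10.7 ± 1.94 and Max at 9.94 ± 4.00 CPM per kilobase, the last 2 overlapping. Mxi1 (3.45 ± 0.482), Mycl (3.23 ± 1.44), Myc (2.54 ± 0.634) and Mnt (2.15 ± 0.409) formed the next overlapping series, and Mxd1 (1.35 ± 0.150), Mycn (1.19 ± 1.29) and Mxd3 (0.376 ± 0.249) the last. The members of every group thus ran from Mlx at the top to Mxd3 at the bottom, and the MYC genes sat in the middle and lower places.

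Myc, the founding oncogene of the family (Entrez 17869, mm9 chromosome 15 from 61816946 to 61821929, plus strand), was at 5.41, 15.7, 7.25 and 11.7 CPM in control livers. It was at 3.91, 3.95, 10.6 and 4.72 CPM in tumors labelled DKO, and at 4.34, 8.03, 7.82 and 7.39 CPM in tumors labelled TKO. DKO 1, DKO 2, DKO 4 and TKO 1 lay below every control liver, no tumor lay above them all, and the groups overlapped. The DKO difference of -0.78 log2 (SE 0.394) had a 95% interval from -1.63 to 0.08 and an edgeR adjusted p of 0.253. Without DKO 3, the highest of its group, it was -1.24 with an adjusted p of 0.0749, without control 2 it was -0.48 at 0.562, and over all alternatives the adjusted p ran from 0.0749 to 0.562. For TKO it was -0.53 (SE 0.392, interval -1.39 to 0.32, adjusted p 0.535) and without control 2 -0.24, and TKO against DKO was 0.24 (SE 0.393, adjusted p 0.872). With 1 library left out that last value ran from 0.10 (without DKO 2) to 0.71 (without DKO 3).

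Mycn (Entrez 18109, mm9 chromosome 12 from 12942902 to 12948720, minus strand), the paralog best known from neural tumors, was at 4.38, 1.60, 1.42 and 0.952 CPM in control livers. It was at 5.75, 3.48, 1.60 and 7.02 CPM in tumors labelled DKO, and at 1.75, 2.20, 1.46 and 10.3 CPM in tumors labelled TKO. Only DKO 1, DKO 4 and TKO 4 exceeded all control livers, so the groups overlapped. The log2 fold change was 1.09 (SE 0.700, adjusted p 0.369) for DKO and 0.90 (SE 0.702, adjusted p 0.562) for TKO. Without control 1, the highest of its group, these were 1.76 and 1.57, with adjusted p of 0.179 and 0.369. The TKO value rests on TKO 4, and without that library it was -0.23, with an adjusted p of 0.884 in a range over the alternatives from 0.369 to 0.884. TKO 4 is also the library with the lowest summed hepatocyte markers, and the lowest of its group for 8 of those 10 genes, and a link between these values was not tested.

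Mycl, the third MYC paralog (Entrez 16918, mm9 chromosome 4 from 122672895 to 122679728, plus strand), was at 7.71, 13.8, 7.52 and 11.6 CPM in control livers. It was at 23.2, 22.6, 10.9 and 13.7 CPM in tumors labelled DKO, and at 17.2, 18.1, 5.60 and 11.3 CPM in tumors labelled TKO. DKO 1, DKO 2, TKO 1 and TKO 2 were above every control liver, TKO 3 was below them all, and the groups overlapped. The log2 fold change was 0.80 (SE 0.365, interval from 0.00 to 1.59, adjusted p 0.206) for DKO and 0.37 (SE 0.365, adjusted p 0.665) for TKO. Without TKO 2 the TKO value was 0.17 and without TKO 3 it was 0.62, and the covariate from sex-linked genes gave 0.44 for DKO. Both kept their sign under all alternatives, with adjusted p between 0.0614 and 0.479 for DKO and between 0.313 and 0.910 for TKO.

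Per kilobase, the 3 MYC genes together were at 6.84 ± 2.21 CPM per kilobase in control livers, 7.84 ± 0.848 in tumors labelled DKO and 6.96 ± 1.78 in tumors labelled TKO, so their sum overlapped between groups. Myc gave 52.3 ± 9.80% of this sum in control livers, 28.2 ± 18.1% in tumors labelled DKO and 38.5 ± 15.8% in tumors labelled TKO. Mycl gave 36.9 ± 1.41%, 54.5 ± 14.5% and 45.9 ± 18.1% in the same order, and Mycn 10.7 ± 9.99%, 17.2 ± 9.65% and 15.5 ± 13.8%. The ratio of Mycl to Myc, chosen after the values were seen and not tested, was 0.959, 0.589, 0.698 and 0.669 in control livers. It was 3.98, 3.85, 0.695 and 1.95 in tumors labelled DKO, and 2.66, 1.52, 0.482 and 1.03 in tumors labelled TKO. The ratio was above every control liver in 6 of 8 tumors, and DKO 3 and TKO 3 were the exceptions.

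**Figure D2:**
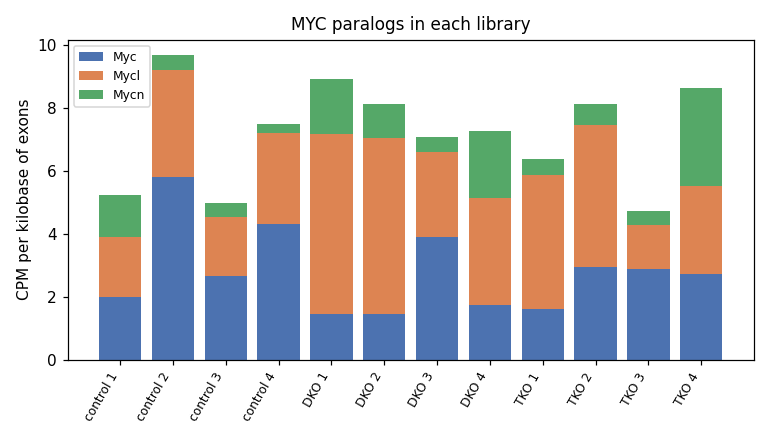
Stacked bars of Myc, Mycl and Mycn in CPM per kilobase of exons (vertical axis, TMM scaled) in each of 12 libraries, by group. Mycl takes 64.3% of the sum in DKO 1, 69.0% in DKO 2 and 66.7% in TKO 1, and between 35.2% and 38.5% in control livers.

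DKO 3 and TKO 3 also differ from the other tumors in markers of several cell types, though not alike for the sum of biliary markers, a link noticed after the values were seen. The summed level of 10 Kupffer cell and macrophage markers was 657, 266, 294 and 642 CPM in control livers, 254, 212, 546 and 113 CPM in tumors labelled DKO, and 207, 446, 719 and 189 CPM in tumors labelled TKO. DKO 3 was the highest of its group for 8 of these 10 genes and TKO 3 for 9 of 10. Clec4f, the lectin of Kupffer cells, was the most abundant at 135, 66.1 and 101 CPM in control, DKO and TKO, no marker was at 0 in any library, and 9 of 10 were lower in each tumor group at medians of -0.70 and -0.19 with 0 called. The summed level of 8 stellate cell and fibroblast markers was 322, 381, 266 and 444 CPM in control livers, 242, 197, 579 and 169 CPM in tumors labelled DKO, and 217, 336, 423 and 333 CPM in tumors labelled TKO. DKO 3 was highest for 8 of 8 and TKO 3 for 5 of 8, Dcn (decorin) was the most abundant at 190, 139 and 128 CPM, none was at 0, and the medians were 0.07 and 0.19 with 0 called. For 8 endothelial markers the sums were 215, 157, 152 and 232 CPM in control livers, 180, 190, 294 and 210 CPM in tumors labelled DKO, and 224, 225, 386 and 196 CPM in tumors labelled TKO. DKO 3 was highest for 6 of 8 and TKO 3 for 8 of 8, Eng (endoglin) led at 40.4, 44.6 and 52.5 CPM, none was at 0, and the medians were 0.22 and 0.42 with 0 called. Within each tumor group the library with the highest sums of these 3 lists thus had the lowest ratio of Mycl to Myc. The control livers did not follow this, as control 1 had the highest Kupffer sum and the highest ratio and control 2 the lowest of both, and the part of these cells in the ratio was not tested.

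The summed level of 6 biliary markers was 39.6, 28.6, 50 and 32.0 CPM in control livers, 60, 48.6, 109 and 24.8 CPM in tumors labelled DKO, and 55.2, 35.0, 31.4 and 39.9 CPM in tumors labelled TKO. By this sum TKO 3 was thus the lowest of its group and TKO 1, with the highest ratio of Mycl to Myc in that group, the highest. By gene, TKO 3 was the lowest of its group for 0 of 6 and TKO 2 for 5, and TKO 1 was the highest for 2. Of these 6 markers 4 were tested, with Spp1 the most abundant, Cftr at 0 in 1 library, medians of 1.03 for DKO and 0.14 for TKO, and 0 called. For 8 lymphocyte markers the sums were 34.0, 11.7, 11.7 and 23.2 CPM in control livers, 11.3, 11.2, 29.3 and 9.14 CPM in tumors labelled DKO, and 13.6, 12.4, 20.2 and 14.7 CPM in tumors labelled TKO, 6 of 8 were tested, with Ptprc the most abundant, Cd3d at 0 in 1 library, medians of -0.60 and -0.58, and 0 called. For 8 neutrophil markers they were 4.67, 4.30, 4.47 and 9.66 CPM in control livers, 5.29, 4.19, 16.5 and 6.25 CPM in tumors labelled DKO, and 4.28, 5.97, 12.4 and 2.69 CPM in tumors labelled TKO, 4 of 8 were tested, with S100a9 the most abundant, Ly6g at 0 in 1 library, Mpo in 2 and Elane in 3, medians of 0.37 and 0.01, and 0 called. At an unadjusted p under 0.05, for DKO and TKO, edgeR had 1 and 1 of the Kupffer cell markers, 0 and 0 of the stellate, 2 and 1 of the endothelial, 0 and 0 of the biliary, 1 and 0 of the lymphocyte and 0 and 0 of the neutrophil markers, beside 24.0% and 16.3% of all genes.

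Max, the shared partner of both sides (Entrez 17187, mm9 chromosome 12 from 78038256 to 78063235, minus strand), was at 17.4, 14.8, 17.0 and 15.7 CPM in control livers. It was at 13.8, 18.2, 15.7 and 22.0 CPM in tumors labelled DKO, and at 16.7, 15.9, 15.2 and 31.9 CPM in tumors labelled TKO. DKO 2, DKO 4 and TKO 4 were above every control liver and DKO 1 below, and TKO 4 stood far above the other tumors labelled TKO, which overlapped with control livers. The log2 fold change was 0.10 (SE 0.234, adjusted p 0.821) for DKO and 0.30 (SE 0.234, adjusted p 0.564) for TKO. Without TKO 4 the TKO value was -0.03, with an adjusted p of 0.946 in a range over the alternatives from 0.403 to 0.946, and without DKO 4 the DKO value was also -0.03. Over all alternatives these values ran up to 0.21 for DKO and, with total counts, to 0.50 for TKO.

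Mxd3, the MXD gene known to be expressed in S phase (Entrez 17121, mm9 chromosome 13 from 55426529 to 55431119, minus strand), is the member with the lowest level and, against control livers, the largest fold change. It had 3, 1, 1 and 1 counts in control livers, 13, 27, 12 and 5 counts in tumors labelled DKO, and 19, 10, 1 and 16 counts in tumors labelled TKO. As CPM these were 0.222, 0.123, 0.0678 and 0.0732 in control livers, 0.997, 2.14, 0.710 and 0.295 in tumors labelled DKO, and 1.15, 0.711, 0.0767 and 1.19 in tumors labelled TKO. All 4 tumors labelled DKO were above all control livers, and so were the tumors labelled TKO except TKO 3, which had 1 count. Over summed counts of 6, 57 and 46, the ratio to control was 7.98 for DKO (95% counting interval 3.45 to 22.7) and 6.72 for TKO (2.86 to 19.2), and the ratio of TKO to DKO was 0.842 (0.558 to 1.26). These intervals cover counting error only.

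Mxd3 passed the filter only through the tumors, so its p values add no support, and the counts above describe it. The fitted log2 fold change, which depends on the prior count at such low counts, was 2.99 for DKO (SE 0.838, 95% interval 1.17 to 4.81) with an edgeR adjusted p of 0.0724. For TKO it was 2.62 (SE 0.849, interval 0.78 to 4.47, adjusted p 0.177), and for both 2.80 (SE 0.783, adjusted p 0.0711). DESeq2 gave an adjusted p of 0.0175 for DKO and 0.0149 for both. Without TKO 3 edgeR gave an adjusted p of 0.0341 for DKO and 0.0219 for both. Over the 20 alternatives that gave a value the adjusted p ran from 0.0175 to 0.192 for DKO, from 0.0566 to 0.400 for TKO and from 0.0149 to 0.211 for both, with a positive sign throughout. With the libraries of DKO and control alone, or of TKO and control alone, Mxd3 did not pass the filter.

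Markers of dividing cells differ between the same libraries. The summed level of 10 proliferation markers was 17.2, 11.4, 11.7 and 25.4 CPM in control livers, 66.4, 127, 49.9 and 30.5 CPM in tumors labelled DKO, and 78.1, 37.2, 17.9 and 54.0 CPM in tumors labelled TKO. DKO 2 was the highest of its group for 10 of 10 markers and DKO 4 the lowest for 9, TKO 1 was the highest for 9 and TKO 3 the lowest for 10. DKO 2 and DKO 4 are also the highest and lowest libraries of their group for Mxd3, and TKO 3 the lowest of its own, while the highest of its group for Mxd3 was TKO 4, not TKO 1. All 10 markers were higher in both tumor groups, at a median log2 fold change of 2.06 for DKO and 1.51 for TKO, and none was at 0. Over all 12 libraries Cdk1 was the most abundant, at 4.35, 12.7 and 10.9 CPM in control, DKO and TKO, while Top2a was higher in tumors labelled DKO at 15.4 CPM. The filter asked for 0.691 CPM, before TMM scaling, in 4 libraries, and 6 of the 10 markers reached this in fewer than 4 control livers and so passed through the tumors, for which reason their number and median add no support. At an unadjusted p under 0.05 there were 10 of 10 for DKO and 8 of 10 for TKO, beside 24.0% and 16.3% of all genes. The 4 that reached the level in every control liver, Top2a, Ccna2, Cdk1 and Cdc20, are among these 10, and all but Top2a are among the 8. Mki67, the gene of the Ki-67 antigen, reached it in 3 control livers and Plk1, a mitotic kinase, in 1. Mki67 was at 2.00, 1.48, 0.678 and 1.98 CPM in control livers and above all of them in 8 of 8 tumors, and edgeR called it at 2.90 (SE 0.595, adjusted p 0.0425) for DKO and 2.49 (SE 0.549, adjusted p 0.0444) for both. Plk1, at 7, 4, 4 and 19 counts in control livers, was above all of them in 7 of 8 tumors, and was called for DKO at an adjusted p of 0.0469. Both passed the filter through the tumors, so these p values add no support. With 1 library left out, the call of Mki67 was kept in 4 of 12 fits for DKO and 3 of 12 for both, and that of Plk1 in 3 of 12. The part of dividing cells in the level of Mxd3 was not tested.

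In the annotation the exons of Mxd3 share 104 bases with those of Prelid1 on the other strand, and the strand setting of the counting is not stated. Prelid1 was at 31.7 ± 6.15 CPM in control livers, 29.0 ± 2.59 in tumors labelled DKO and 31.0 ± 6.56 in tumors labelled TKO, with log2 fold changes of -0.13 (adjusted p 0.678) and -0.03 (adjusted p 0.950). The part of Prelid1 reads in the counts of Mxd3 was not tested.

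Mxi1 (Entrez 17859, mm9 chromosome 19 from 53384996 to 53450300, plus strand) is an antagonist of MYC with alternative first exons, which these counts do not separate. It was at 21.2, 28.0, 28.9 and 24.9 CPM in control livers. It was at 18.3, 19.9, 19.9 and 20.3 CPM in tumors labelled DKO, and at 16.6, 18.3, 23.0 and 19.6 CPM in tumors labelled TKO. With TMM scaling, every tumor but TKO 3 lay below the lowest control liver, control 1. With total counts, DKO 3 and TKO 4 also lay above control 1. The log2 fold change was -0.39 for DKO (SE 0.134, interval -0.68 to -0.10, adjusted p 0.106), -0.41 for TKO (SE 0.134, interval -0.70 to -0.12, adjusted p 0.180) and -0.40 for both (SE 0.114, adjusted p 0.0730). DESeq2 gave -0.41 for both at an adjusted p of 0.0268, and without TKO 3 edgeR gave -0.45 at 0.0350. Total counts gave smaller values, -0.24 for TKO at 0.601 and -0.28 for both at 0.378. Over all alternatives the adjusted p ran from 0.0357 to 0.396 for DKO, from 0.0700 to 0.601 for TKO and from 0.0186 to 0.378 for both, with a negative sign throughout. Its exons share 194 bases with Gm10197 on the other strand.

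Mxd4 (Entrez 17122, mm9 chromosome 5 from 34516536 to 34530369, minus strand), the most abundant of the MXD genes per kilobase, was at 40.2, 42.3, 40.3 and 43.9 CPM in control livers. It was at 36.8, 33.1, 36.0 and 35.0 CPM in tumors labelled DKO, and at 45.2, 36.9, 50.2 and 33.8 CPM in tumors labelled TKO. With TMM scaling, all tumors labelled DKO were below all control livers by a narrow margin, whereas the tumors labelled TKO fell on both sides. The separation of DKO from control depends on this scaling, and with total counts the ranges of DKO and control overlapped. The log2 fold change was -0.24 for DKO (SE 0.129, interval -0.52 to 0.04, adjusted p 0.274), -0.005 for TKO (SE 0.129, interval -0.28 to 0.27, sign turned under total counts), and 0.24 for TKO against DKO (SE 0.129, adjusted p 0.598). Without TKO 3 this last value was 0.13 at an adjusted p of 0.904.

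Mxd1 (Entrez 17119, mm9 chromosome 6 from 86597038 to 86619153, minus strand), which is known to accumulate when cells differentiate, was at 5.86, 4.92, 3.80 and 7.69 CPM in control livers. It was at 5.75, 4.11, 5.74 and 5.54 CPM in tumors labelled DKO, and at 5.43, 6.68, 6.06 and 7.01 CPM in tumors labelled TKO. All 8 tumors were inside the range of the control livers. The intervals of its log2 fold change ran from -0.56 to 0.41 for DKO and from -0.31 to 0.66 for TKO, and the value for TKO was 0.03 without control 3 and 0.37 without control 4.

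Per kilobase, Mxd1, Mxd3, Mxd4 and Mxi1 together were at 16.6 ± 0.826 CPM per kilobase in control livers, 14.2 ± 0.263 in tumors labelled DKO and 15.9 ± 1.91 in tumors labelled TKO. This sum, which was not tested, lay between 14.0 and 14.5 in tumors labelled DKO, below its range of 15.5 to 17.4 in control livers, and tumors labelled TKO overlapped with both. With total counts in place of TMM, it was higher in DKO 3 and DKO 4 than in control 2 and control 3, so DKO and control overlapped. Mxd4 and Mxi1 made up 92.4 ± 2.05% of that sum in control livers, 88.6 ± 1.72% in tumors labelled DKO and 88.8 ± 3.07% in tumors labelled TKO. The sum of these 4 over the sum of the 3 MYC genes was 2.58 ± 0.687 in control livers, 1.82 ± 0.186 in tumors labelled DKO and 2.47 ± 1.03 in tumors labelled TKO, and the groups overlapped for this ratio. Mxd3 contributed 0.497 of the 14.2 CPM per kilobase in tumors labelled DKO.

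Mnt (Entrez 17428, mm9 chromosome 11 from 74644422 to 74659227, plus strand), the antagonist found in most cells, was at 8.08, 12.3, 7.32 and 9.52 CPM in control livers. It was at 12.6, 11.2, 8.16 and 14.4 CPM in tumors labelled DKO, and at 7.24, 11.5, 10.9 and 10.1 CPM in tumors labelled TKO. The groups overlapped, at a log2 fold change of 0.32 (SE 0.222, adjusted p 0.401) for DKO and 0.10 (SE 0.223, adjusted p 0.869) for TKO. Without DKO 4 the DKO value was 0.20, and the TKO value was 0.00 without control 3 and 0.26 without control 2.

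Mlx (Entrez 21428, mm9 chromosome 11 from 100948591 to 100953521, plus strand), the partner of the glucose sensors, was at 63.5, 50.2, 57.2 and 48.0 CPM in control livers. It was at 62.8, 57.7, 57.4 and 64.1 CPM in tumors labelled DKO, and at 63.2, 59.6, 63.5 and 55.2 CPM in tumors labelled TKO. The tumors lay between 55.2 and 64.1 CPM and 2 of 8 were above every control liver, at a log2 fold change of 0.15 (SE 0.116, interval -0.11 to 0.40) for DKO and 0.14 (SE 0.116, interval -0.11 to 0.40) for TKO. Both were 0.22 without control 1, without control 4 they were 0.09 and 0.08, and total counts gave 0.28 for TKO. Its exons share 385 bases with Psmc3ip on the other strand, which was at 4.02 ± 0.545, 3.30 ± 0.632 and 4.28 ± 0.591 CPM in the 3 groups.

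**Figure D3:**
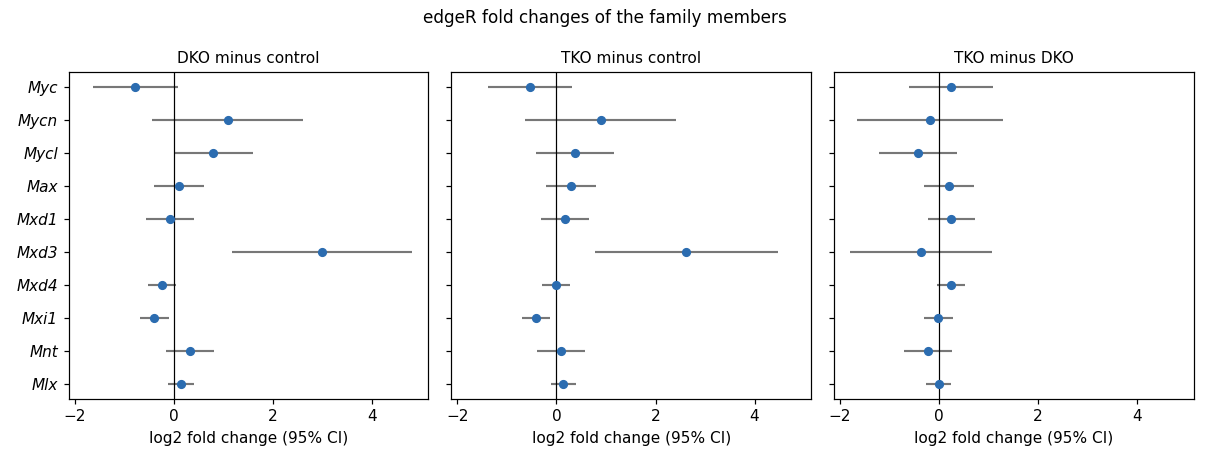
Fitted log2 fold change of each of the 10 members (points, edgeR) with its 95% interval (lines) for DKO against control, TKO against control and TKO against DKO, 4 libraries per group. For Mxd3 and Mxi1 the intervals of both comparisons with control lie on 1 side of 0, and no interval of TKO against DKO does.

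The wider network has 3 more genes. Mga, which encodes a large MAX partner with a T-box domain, was at 19.6 ± 3.69, 20.8 ± 3.63 and 20.0 ± 2.91 CPM in control, DKO and TKO. Mlxip, the gene of MondoA, was at 5.87 ± 1.50, 6.29 ± 2.71 and 6.26 ± 1.29 CPM, and Mlxipl, the gene of ChREBP, at 83.9 ± 23.3, 83.0 ± 14.8 and 99.1 ± 27.8 CPM. Their groups overlapped, edgeR called 0 of 3 in every comparison, beside 2.42% of all genes for DKO and 0.0864% for TKO, with 0 at an unadjusted p under 0.05 beside 24.0% and 16.3%, and the lowest adjusted p was 0.677.

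Among 24 cofactors of MYC and regulators of its turnover, 17 were higher and 7 lower for DKO, at a median log2 fold change of 0.11, and 17 and 7 for TKO, at 0.16, beside 0.02 for all genes. EdgeR called 0 of 24 in every comparison, and 2 and 1 had an unadjusted p under 0.05 for DKO and TKO, where all genes had 24.0% and 16.3%. At the ends of the list for both tumor groups were Aurka, a kinase that stabilizes MYC proteins, at 1.12 (SE 0.438, adjusted p 0.152) and Skp2, a ubiquitin ligase subunit, at 0.68 (SE 0.354, adjusted p 0.273). At the other end were Ppp2r5a, a phosphatase subunit that favors MYC breakdown, at -0.32 (SE 0.138, adjusted p 0.188) and Mycbp at -0.22 (SE 0.147, adjusted p 0.404).

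Among 19 genes of the SIN3 and histone deacetylase corepressors, through which MXD proteins and MNT act, 12 were higher and 7 lower for DKO (median 0.08), and 11 and 8 for TKO (median 0.03). EdgeR called 0 of 19, with 4 and 2 at an unadjusted p under 0.05, beside 24.0% and 16.3% of all genes. Brms1l and Sap30, subunits of the SIN3 complex, stood at 0.68 (SE 0.254, adjusted p 0.137) and 0.57 (SE 0.296, adjusted p 0.277) for both, and Sap30l and Ing2, also of that complex, at -0.41 (SE 0.203, adjusted p 0.252) and -0.27 (SE 0.187, adjusted p 0.421).

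Of 47 known MYC targets, most of them genes of ribosome production, 30 were higher and 17 lower for DKO (median 0.07), and 32 and 15 for TKO (median 0.08). EdgeR called 1 of 47 for DKO, beside 2.42% of all genes, and 0 in the other comparisons. At an unadjusted p under 0.05 were 7, 9 and 3 for DKO, TKO and TKO against DKO, beside 24.0%, 16.3% and 9.0% of all genes, so these counts lie near or below the shares over all genes and are not a result about the targets. The called gene is Tfrc, the transferrin receptor, which MYC is known to induce and which iron also controls, at 10.3 ± 2.92 CPM in control livers, 51.2 ± 42.9 in tumors labelled DKO and 29.5 ± 15.8 in tumors labelled TKO. It rose by 2.32 (SE 0.535, adjusted p 0.0486) for DKO, and stood at 1.92 (SE 0.487, adjusted p 0.0563) for both. With 1 library left out, this call was kept in 3 of 12 fits, and without DKO 4 the value was 1.53 at an adjusted p of 0.0779. Cad, of pyrimidine synthesis, was at 0.66 for both (SE 0.265, adjusted p 0.159), Tert, of telomerase, at -0.76 (SE 0.212, adjusted p 0.0706), and Rrs1, of ribosome assembly, at -0.49 (SE 0.172, adjusted p 0.117).

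Of 10 targets of MLX and the Mondo proteins, genes of sugar and fat metabolism, 3 were higher and 7 lower for DKO (median -0.31), and 6 and 4 for TKO (median 0.03). EdgeR called 0 of 10, with 1 and 1 at an unadjusted p under 0.05, beside 24.0% and 16.3% of all genes. Fgf21, a hormone of fasting and sugar intake, stood at 1.74 for both (SE 0.605, adjusted p 0.117) and Tkfc, a fructose enzyme, at 0.10 (SE 0.314, adjusted p 0.878). Thrsp, which promotes fat synthesis, was at -1.10 (SE 0.575, adjusted p 0.275) and Arrdc4, an arrestin relative of Txnip, at -0.33 (SE 0.148, adjusted p 0.208).

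The genes with the most similar pattern were found by Pearson r of log2 CPM over 12 libraries after the mean of each group was subtracted, among 13542 genes, as a description without a test. For Mxd3 they were Ncapg (r 0.97, Spearman rho 0.88), Ezh2 (r 0.95, rho 0.91) and Gpc1 (r 0.95, rho 0.90). For Myc they were 2410002F23Rik (r 0.95, rho 0.92), Col5a1 (r 0.94, rho 0.93) and Antxr1 (r 0.94, rho 0.92). For Mycl they were Slc44a3 (r 0.96, rho 0.92), Ntn3 (r 0.93, rho 0.91) and Itpripl1 (r 0.92, rho 0.90). Those of Mycn were Dap, Scara5 and Orc2, and those of Max were Klhl23, Pmm1 and Prdx3. Those of Mxd1 were Tapbp, Csf1 and Rab11fip3, those of Mxd4 H3f3c, Tmem59 and Ak3, and those of Mxi1 Hectd2os, Madd and Lmbr1. For Mnt they were Ccdc85c, H4bc24 and Thap7, and for Mlx Gm10045, Gmfg and Capn2, and r lay between 0.900 and 0.969 for all of these genes. Ranking by Spearman rho, or without subtracting group means, shared 2 or more of a member's 3 genes in 7 cases and fewer in 13. For Mxd3 and for Mxi1 both of these shared 0 of 3, and without subtracting group means 0 of 3 were shared for Myc and Mnt, so these names depend on the method.

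Promoters from RefSeq (build GRCm38.p6), which hold 250 bases before and 50 after a transcription start, matched 9 of the 10 members in 11 windows, without Myc. The E-box letters CACGTG, which read the same on both strands, were in 4 members, starting 219 bases before the start of Mxd4, 123 before Mnt, 40 before Mlx and 3 before Max. Of all 32851 windows of this length, 7.15% hold these letters. This share, like that for the E2F letters below, is per window, while members are counted by gene. Mxi1 had more than 1 window, so the counts and the shares are unlike measures. The E2F letters TTTCCCGC, TTTGGCGC, TTTCGCGC and TTTGCCGC, searched on both strands, were in 1 member, Mycn, and in 2.26% of all windows. Mycn had 3 matches, TTTGGCGC at 183 and 168 bases before the start and TTTCGCGC on the other strand at 179, which overlaps the first. A match is only a run of letters, and says nothing of whether a factor binds.

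The 250 bases before the start are shown for Mycn as the member with E2F letters, for Mxd4 and Mlx as the most abundant members with an E-box, and for Mxd3 as the member with the largest fold change against control livers, which holds neither motif. They are written 5′ to 3′ on the strand of the gene, with matches in capitals. Mycn lies on the minus strand at chr12:12941837-12942086, Mxd4 on the minus strand at chr5:34187711-34187960, Mlx on the plus strand at chr11:101087040-101087289 and Mxd3 on the minus strand at chr13:55329732-55329981.
Mycn: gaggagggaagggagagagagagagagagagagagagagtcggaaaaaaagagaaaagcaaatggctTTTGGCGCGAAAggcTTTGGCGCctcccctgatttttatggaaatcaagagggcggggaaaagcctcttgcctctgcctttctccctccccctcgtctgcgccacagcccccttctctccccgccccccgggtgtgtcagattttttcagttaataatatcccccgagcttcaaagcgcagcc
Mxd4: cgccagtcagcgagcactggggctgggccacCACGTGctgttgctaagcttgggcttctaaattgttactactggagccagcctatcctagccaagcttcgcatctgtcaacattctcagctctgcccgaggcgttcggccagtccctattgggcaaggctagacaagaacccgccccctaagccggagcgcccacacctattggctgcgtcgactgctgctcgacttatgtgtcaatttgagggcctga
Mlx: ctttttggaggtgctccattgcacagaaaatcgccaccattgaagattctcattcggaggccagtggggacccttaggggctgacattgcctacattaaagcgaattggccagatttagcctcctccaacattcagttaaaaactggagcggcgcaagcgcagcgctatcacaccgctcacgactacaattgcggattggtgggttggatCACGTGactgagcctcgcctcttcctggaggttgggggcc
Mxd3: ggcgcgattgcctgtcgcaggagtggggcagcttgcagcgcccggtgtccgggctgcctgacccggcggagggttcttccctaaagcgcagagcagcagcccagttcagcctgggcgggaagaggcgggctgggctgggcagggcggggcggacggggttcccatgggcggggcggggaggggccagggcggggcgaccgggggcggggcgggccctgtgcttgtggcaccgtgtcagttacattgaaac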

How the data were processed

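The authors aligned SOLiD reads to mm9 (BWA) and deposited raw featureCounts counts by Entrez gene. Software versions, strandedness and the handling of multi-mapping reads are not stated. Positions and exon lengths come from the mm9 annotation.

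All 12 libraries were fitted with edgeR 4.0.16 (R 4.3.3) with TMM scaling, filterByExpr, a mean per group, the quasi-likelihood test and Benjamini-Hochberg adjustment over all 13882 genes kept; called means an adjusted p under 0.05. The test itself gives no SE, so each SE is the absolute log2 fold change divided by the square root of the F statistic. The 95% intervals use this SE and a t quantile. "Both" is the mean of DKO and TKO minus control. DESeq2 1.42.0 and voom with quality weights (limma 3.58.1) were run beside it, and Python 3.11.15 with scipy 1.17.1 was used for the other values.

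The genes named are the 10 members, the 3 deleted genes, the 3 of the wider network, every called gene of the other lists (the 2 highest and 2 lowest for both where under 2 were called), the 3 most similar genes per member, and the most abundant gene and markers at 0 of each marker list. Also named are Top2a, Ccna2 and Cdc20 for the filter level, the genes that share exon bases with members, and Xist and Ddx3y for the covariate. Members and lists were chosen with earlier results of these data known.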

Additional observations from a re-analysis of the deposited data

Results flagged for a closer look

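In 4 of 30 groups of 4 libraries, 1 library lay far from the others of its group, with a gap to its neighbor that took most of the group's range. Chance flags about 1 in 20 groups. Myc was at 10.6 CPM in DKO 3, the highest of its group, with a gap of 0.879 of the range. Mycn was at 10.3 CPM and Max at 31.9 CPM in TKO 4, both the highest of their group, with gaps of 0.916 and 0.910. Mxd1 was at 4.11 CPM in DKO 2, the lowest of its group, with a gap of 0.873. The reason for these values was not tested.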

How the results depend on the processing

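Of 864 fold changes of members recomputed under alternatives, 816 kept their sign and their side of the threshold, 35 changed sign and 13 became called, and no call could be lost because edgeR called 0 members. With DESeq2, 1518 genes were called for DKO, 507 for TKO, 56 for TKO against DKO and 1422 for both, with 1 member for DKO and 2 for both. With voom these were 1804, 97, 0 and 1813 genes, with 2 members for DKO and 2 for both. At an adjusted p of 0.1 there were 1460, 80, 0 and 1317 genes and 1 and 2 members, because the threshold is wider. Total counts gave 59 genes for DKO and 61 for both, no filter 22 for TKO, and the libraries of the comparison alone 759 for DKO. With the replicate block, 509 genes were called for DKO, 1 for TKO and 0 members. A covariate from sex-linked genes left 6, 5 and 4 genes for DKO, TKO and both, but Xist had 1 to 6 counts and Ddx3y 472 to 1126 in all 12 libraries, so it does not separate sexes and this loss is not shown to be an effect of sex. Leave-one-out gave 0 to 651 genes for DKO, 0 to 231 for TKO and 0 to 1019 for both, and 0 to 1 members for DKO and 0 to 2 for both. Signs turned mainly for members near 0. Mxd4 for TKO became 0.139 with total counts, 0.008 with no filter, 0.003 with at least 10 counts in every library and 0.008 with voom. For TKO against DKO, total counts gave 0.07 for Mycn, 0.082 for Mxi1 and 0.094 for Mlx, Mlx became 0 with the libraries of the comparison alone and 0.013 with voom, and Mxd3 became 0.076 with the covariate. Mxd1 for DKO became 0.144 with voom. Leave-one-out ranges that crossed 0 were -0.029 to 0.186 (Max) and -0.224 to 0.124 (Mxd1) for DKO. For TKO they were -0.225 to 1.569 (Mycn), -0.032 to 0.405 (Max) and -0.111 to 0.075 (Mxd4), and for both -0.099 to 0.248 (Mxd1). For TKO against DKO they were -1.301 to 0.123 (Mycn), -0.127 to 0.326 (Max), -0.681 to 0.256 (Mxd3), -0.111 to 0.049 (Mxi1) and -0.029 to 0.037 (Mlx). Apart from the wider threshold, the cause was not tested. Mxd3, with 1 to 3 counts in control livers, has no value with at least 10 counts in every library, nor against control with the libraries of the comparison alone. With the longest transcript or total counts, 59 levels per kilobase moved by less than their spread and 1 by more.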
